A study of Mus musculus with 12 samples.

Results

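The ovaries of the 4 mice on the normal diet were described on their own: which transcripts gave the strongest signal, which gave none, and which differed most from animal to animal. They are the 4 samples that the scanner file titles label control, out of 12 in the series. All were adult C57BL/6J females of 2 months. C57BL/6J is an inbred laboratory strain. The other 8 ovaries came from 4 mice that had a vitamin D-deficient diet only in early life and 4 that had it only around puberty. They enter here only as a check of spread and of naming. Total RNA of minced ovaries was amplified, labelled with Cy3 (controls 1 and 3) or Cy5 (controls 2 and 4) and hybridised to 2-colour Agilent arrays. The design states that the 4 females of a diet group are biological replicates. The labels give no stage of the oestrous cycle.

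The adult mouse ovary holds follicles at every stage. In each follicle an oocyte is surrounded by granulosa cells, which make inhibin, activin and anti-Müllerian hormone and turn androgens into oestrogens. Theca cells outside the follicle make the androgens, under luteinising hormone. After ovulation the remaining granulosa and theca cells become the corpus luteum, which takes up cholesterol and makes progesterone. Stroma, vessels, smooth muscle, macrophages and a surface epithelium surround them, and the oviduct and its fat pad lie against the organ.

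Controls 1 and 2 share 1 array and controls 3 and 4 another, so dye, array and animal cannot be told apart for any single difference, and no test was made between samples. The median signal over local background was 5.86 to 6.98, 60.1% to 62.0% of probe features were well above background, and 0 features were saturated. Signals of the 4 samples correlated at r = 0.977 to 0.986 across genes, which are not independent replicates. The names used here are the titles of the scanned channels. When the authors' value table was set against them, the 4 columns named control matched scanner channels labelled early life best (r across features at least 0.999767), against 0.963775 to 0.98486 for the channels of their own name. The 4 early-life columns matched control channels in the same way. The peripubertal columns matched no scanner channel closely, with a best r of 0.874 to 0.897, and 0 of them matched its own channel best. Which deposit names the arrays correctly was not settled, so the ranking was also made from the scanner files labelled early life.

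The array holds 30175 gene names. For each, the brightest of its probes was taken, as log2 of the mean signal minus the local background, with each channel centred on its median. A level below is that log2 signal. Of the gene names, 17265 (57.2%) had a probe well above background in all 4 ovaries, 2403 (7.96%) in 1 to 3 of them and 10507 (34.8%) in none. The 15090 genes with a value above background in every sample were ranked by their mean, from 6.23 to 17.96 with a median of 10.04. The brightest probe was above background in all 4 in 17228 gene names, of which 2138 lost a value to an outlier spot and were not ranked. A percentile gives the share of ranked genes at or below a gene. Signal depends on the probe as well as on the transcript, so the order is one of array signal and not of transcript copies.

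The strongest signals included those of protein synthesis, energy supply and iron storage. Ribosomal proteins made up 26 of the 100 highest genes and 11 of the 40 highest, and 6 more of the 100 were loci described as like a ribosomal protein. The largest class of the 100 was that of other identifiers without a plain gene symbol, with 39. Another 13 were named genes outside the classes used here. Tpt1, the translationally controlled tumour protein, had 17.47, 18.02, 17.79 and 18.07 in controls 1 to 4 and was second of all. Rpl41, a protein of the large ribosomal subunit, averaged 17.76 ± 0.24 and Rps16 of the small subunit 17.70 ± 0.38 (SD, n = 4, as for every mean below). The mitochondrially encoded oxidase subunits COX1 and COX2 averaged 17.50 ± 0.41 and 17.41 ± 0.12. The ferritin light chain Ftl1 had 17.48 ± 0.37 and the heavy chain Fth1 17.30. Ubb, a ubiquitin precursor, Gapdh of glycolysis and the cytoskeletal actin Actg1 were also among the 40 highest. Among these 40, 24 have a plain gene symbol, and the first of all, a transcript known only by the array's identifier NAP111752-1 with a mean of 17.96, is not annotated further here. The 100 highest genes held 13%, 16.2%, 13.9% and 16.4% of the summed signal of ranked genes in controls 1 to 4.

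Whole families of the cell's basic machinery lay near the top. Of 84 cytosolic ribosomal protein genes on the array 82 were above background in every ovary, and the 77 ranked had a median percentile of 98.9. The 2 not above background in any ovary were Rpl10l and Rpl3l, paralogues known from testis and muscle. All 42 complex I subunits, 17 ATP synthase subunits and 76 mitochondrial ribosomal proteins on the array were above background in the 4 ovaries. Their ranked members had median percentiles of 92.6, 95.6 and 82.7. Glycolysis had 96.5, translation factors 96.4 and the cytoskeleton 94.8. Over the whole array 57.2% of gene names were above background in all 4.

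Genes of the ovary's own work stood among these. Fdx1, adrenodoxin, which carries electrons to the mitochondrial steroid enzymes, had levels of 16.65, 17.81, 17.04 and 17.83 in controls 1 to 4 and ranked 54th. Aldh1a1, an enzyme that makes retinoic acid, had 17.48, 17.39, 17.48 and 16.54 and ranked 76th. Sparc, a matrix-associated glycoprotein, ranked 90th with 17.17 ± 0.30. The inhibin alpha subunit Inha had 16.71, 17.19, 16.99 and 17.37 and ranked 127th. Hsd3b1, which completes progesterone synthesis, followed at 140th with 17.02 ± 0.28. Cyp11a1, the enzyme that cleaves the cholesterol side chain, was 214th with 16.75 ± 0.62.

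A place near the top did not always rest on more than 1 probe. Of the 100 highest genes, 47 have several probes, and in 12 of these the next probe of the gene lay more than 3 log2 units lower. Over all 4914 ranked genes with several probes the median gap was 1.86, and 1470 (29.9%) had a gap over 3. The bile acid transporter Slc10a1 ranked 91st at 17.17 through a probe whose companion, at 5.06, was above background in 0 of 4 ovaries. Zfp628, a zinc finger protein, had 17.45 on its brightest probe and 10.66 on the other. Some of these probes share sequence with each other although their genes are unrelated. The probes of Glrx2, Elk1 and Med16, at 17.40, 17.32 and 17.16, hold a common run of 41 bases, and the next probes of these genes gave 10.96, 6.40 and 11.75. Those of Kctd14 and Ttc38 share 31 bases, and those of Synrg and Lilrb3 share 33. The run of Kctd14 and Ttc38 ends in the bases that begin the common run of Glrx2, Elk1 and Med16. The run of Synrg and Lilrb3 occurs in 3 probes, the remaining one being that of 6330406I15Rik. Windows of the array's probes are printed here, as the array's design gives them on build mm9, because the shared letters bear on how far the ranks of these genes can be read. Capitals mark bases of the run that each probe shares with its partner. Some bases in lower case also match between probes.
Glrx2: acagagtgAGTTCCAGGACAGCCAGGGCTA
Elk1: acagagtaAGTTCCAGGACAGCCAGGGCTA
Med16: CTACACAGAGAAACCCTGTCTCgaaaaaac
Kctd14: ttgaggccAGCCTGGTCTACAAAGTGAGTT
Ttc38: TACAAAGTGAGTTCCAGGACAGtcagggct
Synrg: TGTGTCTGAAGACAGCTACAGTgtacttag
Lilrb3: atcgaatgCCCTCTTCTGGTGTGTCTGAAG

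The windows lie at chr1:145596713-145596742 on the plus strand (Glrx2), chrX:20510540-20510569 minus (Elk1), chr10:79357680-79357709 minus (Med16), chr7:104606899-104606928 plus (Kctd14), chr15:85688105-85688134 plus (Ttc38), chr11:83855528-83855557 plus (Synrg) and chr7:3663069-3663098 minus (Lilrb3). Whether they fall in an exon or an intron was not analysed here. In Glrx2 and Elk1 the capitals are the first 22 bases of the common run and in Med16 its last 22. Over the whole array 717 probes (1.82%) contain a run of 14 bases that recurs in probes of at least 10 gene names. Their median level was 9.92, against 7.20 for all probes, and 70.0% of them were above background in all 4 ovaries, against 56%. Of the ranked genes 388 were ranked through such a probe, 5 of them in the top 100. The part of shared sequence in these signals was not tested.

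The cell types of the ovary could be ordered by the signal of their markers. Theca, granulosa, luteal and stromal markers were the strongest, with median percentiles of 86.6, 86.2, 81.9 and 80.8 over 14, 24, 18 and 19 ranked members. Endothelium (66.5), smooth muscle (62.8), adipocyte (57.4) and pericyte (53.1) markers came next. The place of smooth muscle, with 8 ranked members, was not settled. Its median ran from 43.7 without control 2 to 78.9 with outlier spots kept. Oocyte, red blood cell, macrophage, surface epithelium and oviduct markers lay near the middle, at 51.4, 51.2, 49.8, 48.4 and 47.0. Lymphocyte markers at 30.6 and granulocyte markers at 19.4 were lowest. From the scanner files labelled early life, granulosa (88.9), luteal (78.5) and theca (75.6) markers were again the highest, but stroma had 66.2, below oviduct at 75 and smooth muscle at 72.3. The theca and luteal lists share members, among them Hsd3b1 and Lhcgr, so their medians are not independent. With outlier spots kept, the medians were 88.4 for granulosa, 79.3 for luteal, 78.9 for smooth muscle, 77.4 for stromal and 77.2 for theca markers. With the mean over all probes of a gene, theca had 82.4, below granulosa (86.3), stroma (84.2) and luteal (83.4) markers. Without control 2 theca had 85.7 and granulosa 88.0. The first place of theca thus depended on outlier spots, on probe choice and on the samples. In a whole organ, fewer cells of a type and less RNA per cell cannot be told apart.

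**Figure D1:**
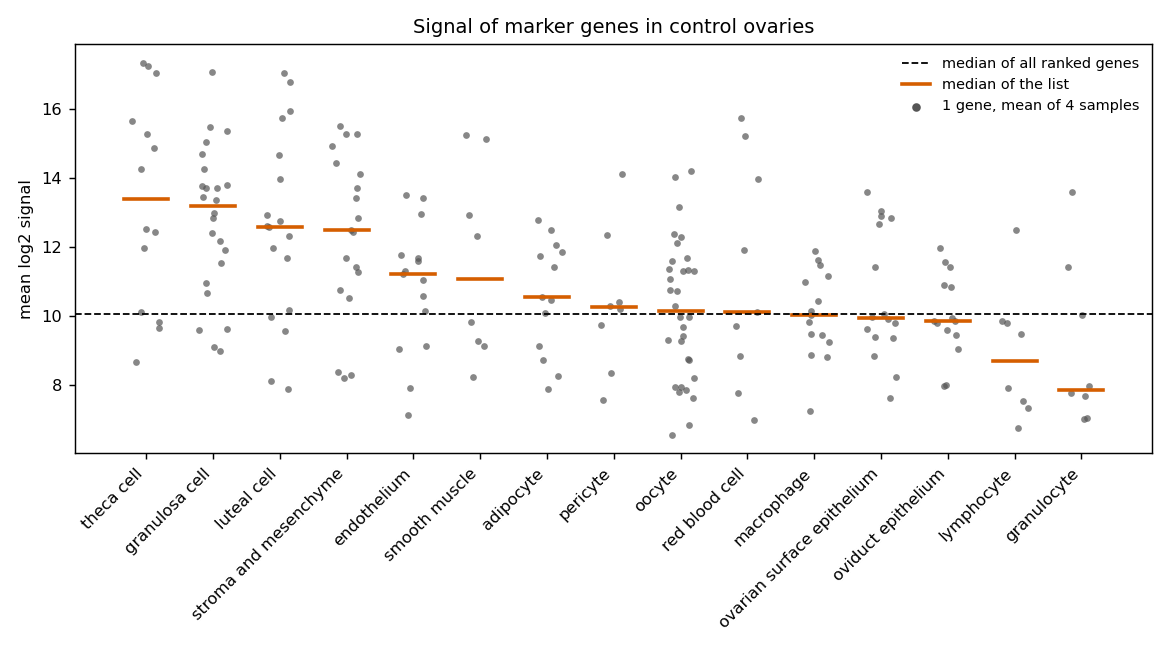
Mean log2 signal (y axis) of ranked marker genes, grouped by cell type (x axis), in the 4 control ovaries. Each grey point is 1 gene, each orange bar is the list's median and the dashed line is the median of all 15090 ranked genes, 10.04. The theca, granulosa, luteal and stromal medians lie highest and the lymphocyte and granulocyte medians lowest.

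All 29 granulosa markers on the array were above background in the 4 ovaries, against 57.2% of all gene names, and 24 were ranked. After Inha, the activin subunit Inhba had 14.58, 15.92, 15.23 and 16.10 in controls 1 to 4. The receptor of anti-Müllerian hormone, Amhr2, averaged 15.34 ± 0.18, and follistatin (Fst), which binds activin, 14.68 ± 0.18. Of the transcription factors that keep granulosa identity, Foxl2 (14.23 ± 0.10) and Gata4 (13.74 ± 0.12) were steady. Nr5a2 had 15.04 ± 0.25, an SD above the median of 0.21 over all ranked genes. Anti-Müllerian hormone itself (Amh), the product of small growing follicles, had 10.39, 10.72, 10.70 and 10.79, at the 58.9th percentile. The receptor of follicle-stimulating hormone, Fshr, had 10.41, 11.40, 10.80 and 11.20. Nppc, the precursor of the peptide that holds oocytes in meiotic arrest, averaged 9.59 ± 0.33 and its receptor Npr2 12.98 ± 0.21. Aromatase (Cyp19a1), which makes oestrogens, was less even, with 10.85, 12.75, 11.69 and 13.34. Its highest ovary, control 4, had 5.6 times the signal of its lowest, control 1.

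Steroid synthesis was well represented: 20 of 22 genes on the list were above background in every ovary, and the 16 ranked had a median percentile of 81.6. Among all gene names, which include many identifiers without a plain symbol, 57.2% were above background in every ovary. Hsd3b1, Cyp11a1 and Fdx1 were followed by adrenodoxin reductase (Fdxr, 15.90 ± 0.11) and Hsd3b6 (15.12 ± 0.17). Spread was uneven across the pathway. Cyp17a1, the theca enzyme of androgen synthesis, had 11.58, 14.66, 11.92 and 11.93 in controls 1 to 4, so that control 2 stood 8.4 times over control 1 and the other 3 ovaries lay between 11.58 and 11.93. Star, which brings cholesterol into mitochondria, had 12.67, 15.09, 14.26 and 16.63, a 15.6-fold range between control 4 and control 1. Cyp11b1, an adrenal enzyme, was above background in 3 of 4 ovaries, and the oestrogen sulphotransferase Sult1e1 in none. Hsd11b1, which regenerates glucocorticoids, had 9.94, 6.94, 7.76 and 8.98.

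The theca list had 17 of 17 genes on the array above background in all 4 ovaries, against 57.2% of all gene names. The hedgehog-responsive genes Gli1, Hhip and Ptch1, through which theca answers granulosa signals, averaged 9.65 ± 0.79, 8.67 ± 0.91 and 9.81 ± 0.46. Each lay below the median of all ranked genes, 10.04. All had their lowest value in control 4, for Gli1 8.48 against 9.88 to 10.17 in the other 3. The receptor of luteinising hormone, Lhcgr, which theca, mature granulosa and luteal cells carry, had 10.52, 13.05, 11.48 and 12.80. It was higher in controls 2 and 4 than in controls 1 and 3.

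Luteal markers were above background in all 4 ovaries for 23 of 24 genes, against 57.2% of all gene names. The vasopressin receptor Avpr1a was above it in none. The 18 ranked members were lowest in control 1 in 12 cases and highest in control 4 in 8. Sfrp4, a WNT-binding protein of corpora lutea, had 14.11, 16.49, 15.89 and 17.24. The prostaglandin F receptor Ptgfr, through which the corpus luteum is made to regress, had 10.05, 12.67, 13.56 and 14.09, a 16.5-fold range. Hsd17b7, an enzyme of both cholesterol and oestrogen synthesis, had 9.81, 13.01, 13.01 and 14.40. The lipoprotein receptor Scarb1, which takes up cholesterol esters, had 14.66, 16.17, 15.48 and 16.58. Of 23 ranked genes of cholesterol synthesis and uptake 18 were lowest in control 1 and 15 highest in control 4. Over all 15090 ranked genes the lowest value fell in control 1 in 3759 and in control 4 in 4971, and the highest in control 4 in 3112. Farnesyl diphosphate synthase (Fdps) had 14.48, 15.65, 14.73 and 16.77, and the sterol reductase Tm7sf2 11.49, 12.96, 12.67 and 14.80.

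**Figure D2:**
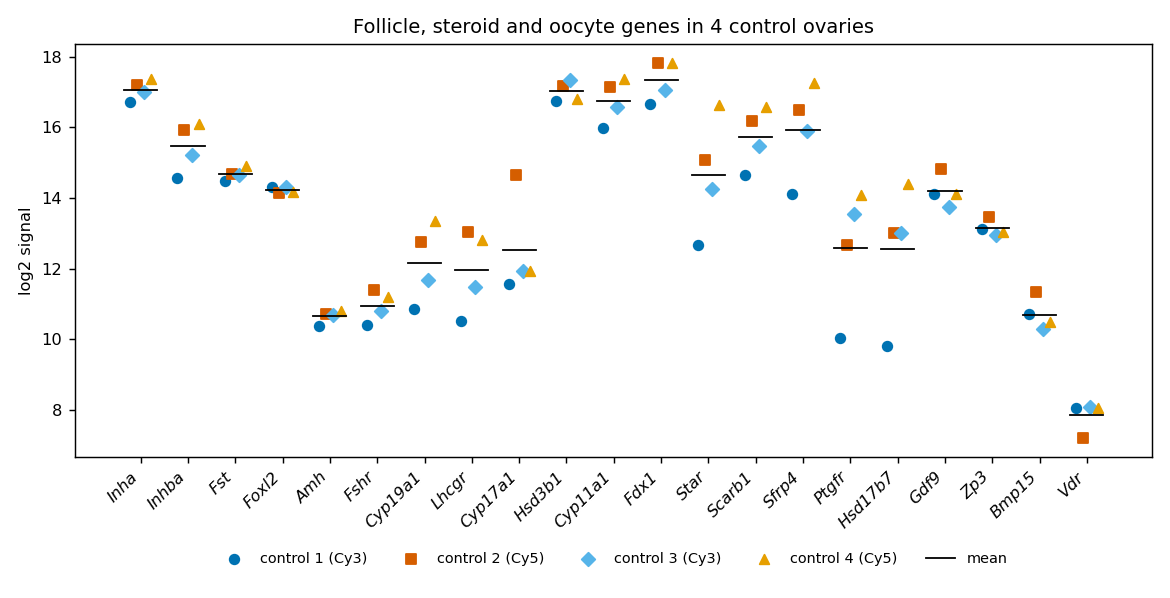
Log2 signal (y axis) of 21 granulosa, theca, steroid, luteal, oocyte and vitamin D genes (x axis) in each of the 4 control ovaries. Points are samples, marked by dye, and black bars are means. Star, Sfrp4, Ptgfr and Hsd17b7 are lowest in control 1 and highest in control 4, Cyp17a1 is highest in control 2, and Foxl2, Fst and Amh lie within 0.43 log2 units.

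All 39 oocyte genes on the array were above background in every ovary, against 57.2% of all gene names. Levels of the oocyte genes were moderate, with a median percentile of 51.4 over the 32 ranked. Gdf9, the growth factor through which the oocyte acts on granulosa cells, had 14.11, 14.81, 13.73 and 14.12. Its partner Bmp15 had 10.73, 11.33, 10.28 and 10.48. The zona pellucida genes Zp1, Zp2 and Zp3 averaged 11.66 ± 0.24, 11.28 ± 0.22 and 13.15 ± 0.22. Tle6 and Nlrp5, maternal proteins of the subcortical complex, had 14.01 ± 0.20 and 12.11 ± 0.38, while Ooep of the same complex was near the bottom at 6.55 ± 0.32. Nobox and Figla, transcription factors of early oocytes, had 9.97 ± 0.33 and 6.82 ± 0.21. No ranked oocyte gene had an SD over 1, which only 1.72% of all ranked genes had. The median SD of the oocyte genes was 0.32, above the 0.21 of all ranked genes. Of the 32, 29 were highest in control 2, against 3910 of all 15090 ranked genes. In control 2 they lay on average 0.39 above their own 4-sample mean, against 0.05 above it in control 1 and 0.21 and 0.22 below it in controls 3 and 4.

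Of the genes of connective tissue, all 40 on the matrix list were above background in every ovary, against 57.2% of all gene names. Of the 40, 32 were ranked, at a median percentile of 81.7. The fibrillar collagens Col3a1 and Col1a2 averaged 15.49 ± 0.78 and 15.28 ± 0.71. Collagens as a family were lower: 31 of 43 were above background in all 4 ovaries and 7 in none, and the 29 ranked had a median percentile of 34.5. The proteoglycans decorin (Dcn) and lumican (Lum) had 15.98, 15.38, 15.55 and 14.11, and 14.55, 13.92, 14.03 and 12.24. In both, control 4 was the lowest, as it was in 24 of the 32 matrix genes and in 4971 of all 15090 ranked genes. Smooth muscle genes were lowest in control 4 in 7 of 8 ranked members, among them Tagln with a mean of 15.25 ± 0.71 and Actg2 with 13.44, 12.06, 12.78 and 10.95. Endothelial genes were even, with a median SD of 0.21, the value of all ranked genes. The VEGF receptor Kdr had 11.63, 11.50, 11.58 and 11.63, and Pecam1, the endothelial adhesion molecule CD31, 9.04 ± 0.11.

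Of 20 macrophage genes 19 were above background in all 4 ovaries and the scavenger receptor Cd163 in none. The receptor Csf1r had 12.31, 12.17, 11.81 and 11.17, and the perforin-like Mpeg1 12.31, 12.08, 11.56 and 10.46. Of the 15 ranked, 14 were highest in control 1 and 14 lowest in control 4. Over all 15090 ranked genes 3845 were highest in control 1 and 4971 lowest in control 4. Of 17 lymphocyte genes 9 were above background throughout, against 57.2% of all gene names, which include many identifiers without a plain symbol. Cd8a, Cd8b1, Il7r and Igkc were among those above background in none. The T cell receptor chain Cd3e averaged 9.46 ± 0.11. Of 18 granulocyte genes 8 were above background throughout, and Ly6g, Mpo, Ngp, Cxcr2, Retnlg, Prg2 and Epx in none. Surface epithelium genes were above background for 17 of 17, led by the keratins Krt8, Krt19 and Krt18 at 13.58 ± 0.51, 13.04 ± 0.74 and 12.88 ± 1.03. Each of these keratins was higher in controls 1 and 4 than in controls 2 and 3, as the oviduct markers below were. Krt18 had 13.85, 11.76, 12.25 and 13.64. The part of oviduct tissue in the keratin signal was not tested. Mesothelin (Msln), which this epithelium shares with other serous linings, had 12.66 ± 0.27.

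Globin genes were strong and uneven. Hba-a1, an alpha globin, had 14.61, 14.43, 16.58 and 15.25, and Hbb-b2, a beta globin, 13.47, 13.11, 15.32 and 13.91. The red cell enzyme of haem synthesis Alas2 had 9.59, 9.08, 10.83 and 9.33. Control 3 was highest in all of these, and in 6 of 9 ranked red cell genes, against 4223 of all 15090 ranked genes. Fat cell genes were uneven in another way. Adiponectin (Adipoq) had 9.08, 9.83, 6.82 and 9.07, adipsin (Cfd) 12.14, 12.52, 9.02 and 11.95, and the fatty acid carrier Fabp4 8.82 in control 3 and 10.72 to 11.31 in the others. Control 3 was the lowest in each of these, and in 5 of 13 ranked fat cell genes, while control 1 was the lowest in 6. Over all 15090 ranked genes control 3 was the lowest in 2469 and control 1 in 3759. The master regulator Pparg, which granulosa cells also express, was even at 12.48 ± 0.31, while leptin (Lep) and Ucp1 were above background in no ovary.

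Hormone receptors ranged over the whole scale. Of 26 genes 23 were above background in all 4 ovaries, with a median percentile of 50.6 over the 17 ranked. Oestrogen receptor beta (Esr2), the form of granulosa cells, had 12.40 ± 0.22 and oestrogen receptor alpha (Esr1) 9.78 ± 0.28. The oxytocin receptor Oxtr had 12.43, 13.49, 13.32 and 14.22. The progesterone receptor Pgr, which luteinising hormone induces before ovulation, was above background in 1 ovary. Some other genes of that preovulatory response were likewise at background: Ptgs2, Has2, Areg and Ereg were above it in 0 of 4 ovaries. Of the 23 genes on that list, 5 were above background in none and 13 (56.5%) throughout, near the 57.2% of all gene names. Among the 13 were Cebpb at 13.75 ± 0.23 and Timp1 at 14.25 ± 0.53.

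Vitamin D genes were mostly weak. The receptor Vdr had 8.05, 7.21, 8.10 and 8.07 (mean 7.86 ± 0.43), at the 19.4th percentile, with control 2 below the other 3. Of 16 genes of the list 11 (68.8%) were above background in every ovary, not far from the 57.2% of all gene names. Their median percentile was 19.4, with levels from 6.57 to 14.42. Cyp24a1, which degrades the hormone and is a classic target of the receptor, was above background in 0 ovaries, and Cyp27b1, which makes the active form, in 2. Cyp2r1, a 25-hydroxylase, had 8.94 ± 0.29. The receptor's partners differed: Rxrb averaged 13.28 ± 0.15, Rxrg 12.17 ± 0.02 and Rxra 7.15 ± 0.23, each on its own probe. The calcium-binding protein S100g had 10.27, 7.68, 7.70 and 8.80, and calbindin (Calb1) 8.84, 6.42, 6.91 and 8.44, so controls 1 and 4 were the higher samples in both.

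Genes of other organs differed in how many were at background. Of 15 pituitary genes 11 were above background in 0 of 4 ovaries, of 12 retinal genes 9, of 19 liver genes 12 and of 21 testis and spermatid genes 11. Of 14 pancreas genes 7 and of 20 brain genes 9 were in that state, while 9 brain genes were above background in every ovary. Of 19 genes of skeletal and heart muscle 4 were above background in none and 7 in all 4. Among all gene names, which include many identifiers without a plain symbol, 34.8% were above background in none. Among plain gene symbols alone these were 4365 of 18601. All 8 Y-linked genes were at background in every ovary, and Xist, the RNA of the inactive X chromosome, had 8.03 ± 0.31. Odour and pheromone receptors were mostly undetected, with 990 of 1100 olfactory and 227 of 260 vomeronasal receptor genes above background in no ovary, which is 90% and 87.3%, against 34.8% of all gene names. All 10 major urinary protein genes were in the same state. There were exceptions. Olfr544 had 11.64, 11.51, 11.64 and 11.55, and Vmn1r65 averaged 12.27 ± 0.44. Apoa1, Apoa2 and Apoa4, apolipoproteins of liver and intestine, were above background in every ovary at 10.42, 11.56 and 11.02. Detection also followed probe composition: 47.2% of probes with at most 30% of G and C were above background in all 4, and 73.1% of those with more than 60%. The part of probe composition in detection was not tested.

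**Figure D3:**
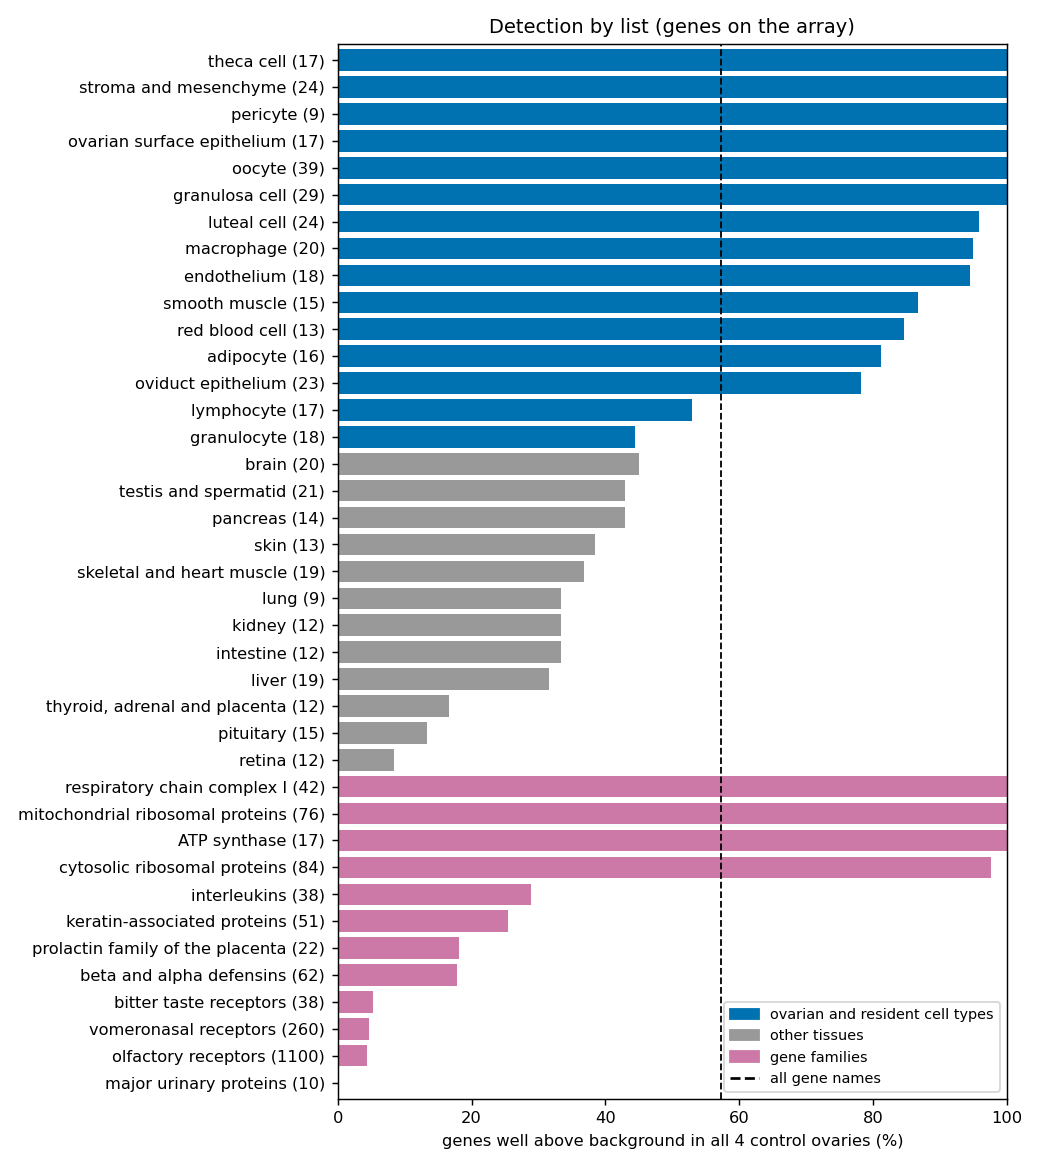
Share of the genes of each list or family (rows, with the number on the array in parentheses) that were well above background in all 4 control ovaries, in percent (x axis). Blue bars are cell types of the ovary and its surroundings, grey bars other tissues, pink bars gene families, and the dashed line is all gene names at 57.2%. Oocyte, granulosa and theca lists reach 100%, and olfactory, vomeronasal and taste receptors lie lowest with the major urinary proteins at 0.

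The 4 ovaries were alike for most genes. The median SD over the 15090 ranked genes was 0.21 log2 units, with quartiles of 0.13 and 0.33. For 284 ranked probes printed 10 times, spots within 1 sample had a median SD of 0.27 to 0.29, and their means differed among samples with a median SD of 0.20. An SD over 1 was found in 259 genes (1.72%) and over 2 in 29. Spread depended on the level and on the dye. The median SD was 0.32 in the lowest 10% of levels, 0.15 between the 75th and 90th percentiles and 0.31 in the top 1%. Cy3 samples were 0.44 above Cy5 samples in that lowest 10% and 0.52 below them in the top 1%. With loess normalization within each array the median SD of the top 1% was 0.16.

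The strongly variable genes were grouped by their pattern over the samples. Of the 259 genes with an SD over 1, 100 (38.6%) were, by their widest gap, high in controls 1 and 4 and low in controls 2 and 3, a split that held for 2.71% of all ranked genes. Another 33 (12.7%) were high in controls 3 and 4, which share an array, against 5.13% of all ranked genes. In 27 (10.4%) control 1 alone was low, near the 8.49% of all ranked genes. Of the 259 genes 120 have a plain symbol, and 47 of these are in the first pattern, 21 in the second and 15 in the third.

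**Figure D4:**
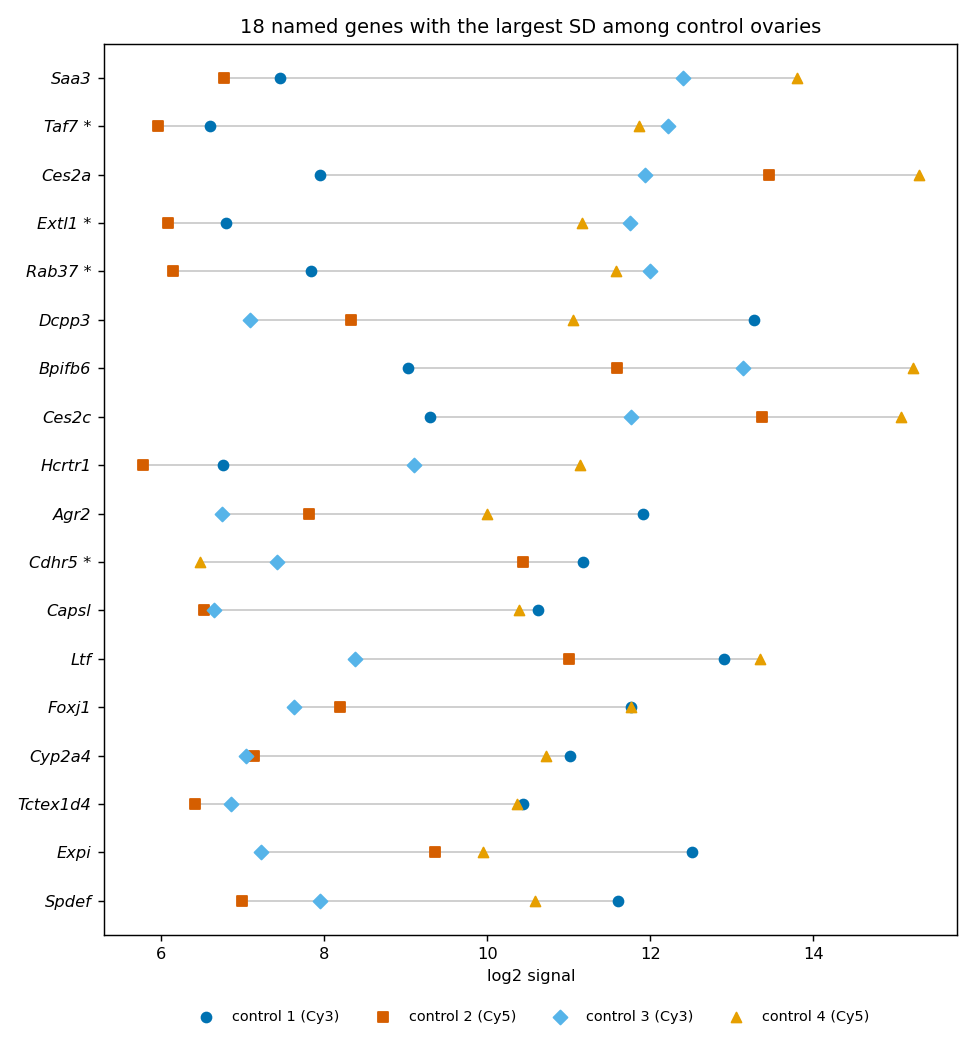
Log2 signal (x axis) of the 18 named genes with the largest SD (rows, largest at the top) in the 4 control ovaries. Points are samples, marked by dye, grey lines span each gene's range, and an asterisk marks 4 genes with at least 2 neighbouring spots that differ between the arrays in the same direction. In 7 genes the widest gap sets controls 1 and 4 above controls 2 and 3.

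Of the 100 genes of the first pattern, the 47 with a plain symbol included genes of ciliated and secretory epithelium, beside others such as Cidea, Cyp2a4 and Hsd11b1. Foxj1, the regulator of motile cilia, had 11.76, 8.19, 7.63 and 11.76 in controls 1 to 4, a 17.6-fold range. The cilia genes Capsl, Tekt1 and Tctex1d4 followed it, with 10.62, 6.53, 6.64 and 10.38 in Capsl. Secretory genes took the same course, with the highest value in control 1. Dcpp3 had 13.27, 8.32, 7.09 and 11.05, the mucin-folding protein Agr2 11.91, 7.82, 6.74 and 9.99, and the epithelial factor Spdef 11.60, 6.99, 7.94 and 10.59. Lactoferrin (Ltf), an oestrogen-responsive secretory protein, was also higher in controls 1 and 4, with 12.91, 11.01, 8.38 and 13.34, although its largest gap set control 3 alone below the rest. The junction proteins Cldn3 and Cldn7 and the transcription factor Pax8 were also high in controls 1 and 4. The split takes 1 sample of each dye and 1 of each array to either side.

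Of the 23 oviduct epithelium markers 18 were above background in all 4 ovaries, against 57.2% of all gene names. Muc4 was above it in 2, and Cldn4, Slc34a2, Pgr15l and Trim71 in none. The 14 ranked members lay on average 0.94 above their own 4-sample mean in control 1, 0.93 above it in control 4, and 0.76 and 1.12 below it in controls 2 and 3. None was highest in control 3 and 1, Pigr, in control 2. Ovgp1, the oviductal glycoprotein, was above background in all 4 but lost values to outlier spots and was not ranked. The part of oviduct tissue in the pattern was not tested. Of the 259 genes with an SD over 1, 118 had controls 1 and 4 against controls 2 and 3 as their largest contrast, 115 of them higher in controls 1 and 4. Of 108 of these with values in all early-life samples, 104 (96.3%) had an SD over 1 there, against 2.32% of all ranked genes. Of 117 measured in all peripubertal samples, 17 (14.5%) did, against 1.22%.

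**Figure D5:**
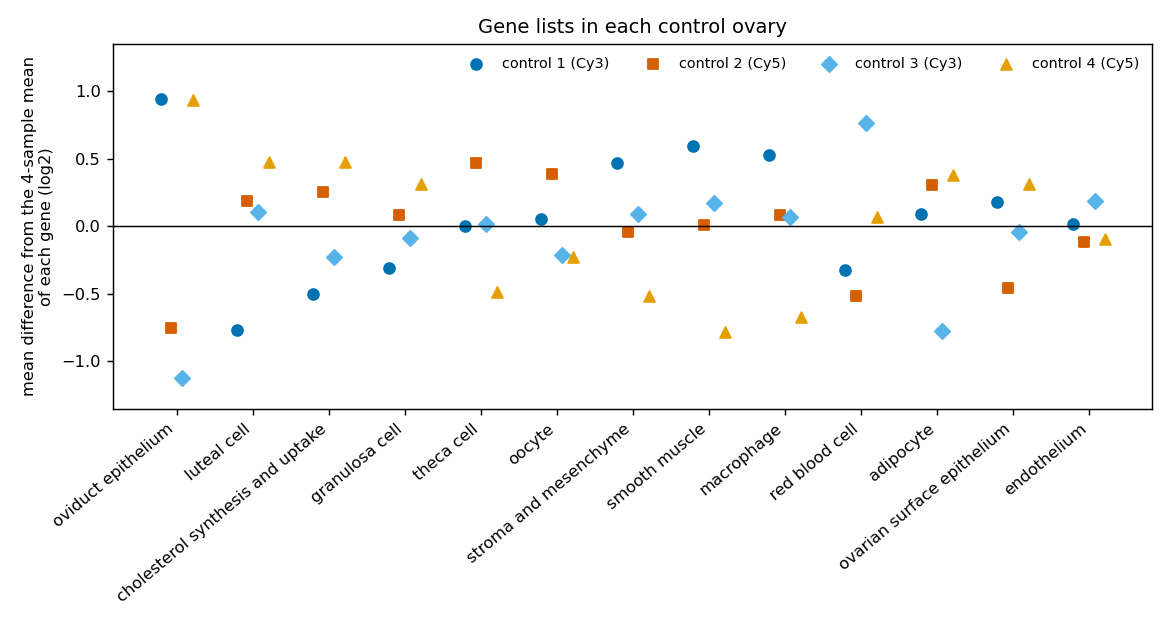
Mean difference of each gene list (x axis) from its genes' 4-sample means, in log2 units (y axis), for each control ovary. Points are samples, marked by dye, and the line at 0 is the 4-sample mean. Oviduct genes are high in controls 1 and 4, luteal and cholesterol genes low in control 1, stromal, smooth muscle and macrophage genes low in control 4, and fat cell genes low in control 3.

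Genes low in control 1 alone, a split near its share of all ranked genes (10.4% against 8.49%), included 5 of the 30 most variable. The carboxylesterase Ces2a had 7.95, 13.46, 11.93 and 15.29, so that control 4 had 163 times the signal of control 1. Its relative Ces2c had 9.30, 13.36, 11.76 and 15.08 on its brightest probe, while its next probe was above background in no ovary. The secreted protein gene Bpifb6 had 9.02, 11.59, 13.14 and 15.22, and the chloride channel protein Clic3 9.29, 12.74, 12.29 and 13.73. Plin4, a lipid droplet coat protein, had 11.03, 15.05, 14.08 and 14.64. Star, Sfrp4, Ptgfr and Hsd17b7 belong to the same 15 named genes. Cited1, a transcriptional coregulator, had 11.43, 13.38, 13.34 and 15.96, again lowest in control 1 and highest in control 4. In Ces2a, Ces2c, Clic3, Plin4, Hsd17b7, Star and Cited1 the largest contrast was that of dye, with the Cy5 samples (controls 2 and 4) higher. In Bpifb6 and Ptgfr it was that of array. The part of dye in these differences was not tested.

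Saa3, an acute-phase serum amyloid, was the most variable gene, with 7.46 and 6.77 in controls 1 and 2 and 12.40 and 13.80 in controls 3 and 4. Saa1 of the same family had 9.10, 9.65, 12.15 and 12.88 on a spot elsewhere on the array. The orexin receptor Hcrtr1 had 6.76, 5.77, 9.10 and 11.13, and its second probe 6.88, 5.80, 8.77 and 10.94. In other genes of this pattern, spots beside the probe differed as well. Taf7, a subunit of a general transcription factor, had 6.60, 5.95, 12.22 and 11.86 at row 141, column 62 of the array, where 6 of the surrounding spots differed in the same direction. The other probe of Taf7 lay between 7.97 and 8.35 in the 4 ovaries. Extl1 and Mecr lie next to each other in rows 462 and 463, and Rab37 and Cyth3 in rows 263 and 264, each with 5 or 6 such neighbours. Of 152 ranked genes that differed by over 1 log2 unit between the arrays in both dyes, 46 (30.3%) had at least 2 such neighbours, against 5.32% of all ranked genes. Of the 259 genes with an SD over 1 there were 20, which leaves 239. The part of spot position in these differences was not tested.

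Further genes varied in patterns of their own. Ifi202b, an interferon-inducible gene, had 10.22, 10.25, 11.31 and 6.93, and its second probe 9.28, 9.16, 10.25 and 6.27, so that both were lowest in control 4. Serpina3a, a serine protease inhibitor, had 13.15, 13.07, 9.20 and 12.36, and its second probe 10.95, 10.81, 6.84 and 10.25, with control 3 the lowest in both. The defensin-related Defa-rs2 had 11.88, 9.52, 11.01 and 7.30. Osteopontin (Spp1), a matrix protein, had 11.84, 9.31, 12.12 and 9.29, and the renin gene Ren2 was also high in controls 1 and 3, which are the Cy3 samples. Dlk1, an imprinted gene of stromal cells, had 11.83, 9.77, 11.29 and 9.10 in the same order.

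At the other end were genes that hardly differed. Above the 75th percentile of levels the smallest SD was that of Stt3b, a subunit of oligosaccharyltransferase, with 12.81, 12.80, 12.80 and 12.82 (SD 0.011). Polr2i of RNA polymerase II, Copa of the vesicle coat and Mrpl38 of the mitochondrial ribosome followed, with SDs of 0.012 to 0.013. These genes were picked for the smallest SDs in that range, so other genes there have larger SDs by construction. Genes used as references in quantitative PCR differed among themselves. The 11 ranked had a median SD of 0.22, against 0.21 for all ranked genes. Tbp, the TATA-binding protein, had an SD of 0.10, Ywhaz 0.11 and Hprt 0.13. Gapdh and Ppia had 0.19, Rplp0 0.34, B2m 0.36 and the transferrin receptor Tfrc 0.61. After loess the SDs of Gapdh and Ppia were 0.042 and 0.043. Those of Stt3b, Polr2i, Copa and Mrpl38, picked for small SDs before loess, were 0.035, 0.041, 0.065 and 0.036. Rplp0 then had 0.13 and B2m 0.44.

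The order of signals was largely that of the other ovaries. From the scanner files labelled early life, 87 of the same 100 genes were the highest, and from those labelled peripubertal 82. Levels correlated with the control levels at r = 0.985 and 0.992 across 13754 and 13387 genes. The 30 most variable named genes overlapped less: 4 of them were among the 30 most variable of the early-life files.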

How the data were processed

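Ovary RNA of 12 mice was measured on 2-colour Agilent arrays, and the 4 samples titled control were used. The deposited scanner files hold background-uncorrected intensity per spot, extracted with Agilent Feature Extraction 11.0.1.1 on build mm9, per the file headers. The series' value table holds log2 values that the authors deposited. It served only for the check of naming, and its scale was not otherwise used. The members and gene lists were chosen with earlier results of these data known.

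Cy3 (odd numbers) or Cy5 (even numbers) mean signal minus the median local background was taken as log2, without control spots and outlier flags, and each channel was centred on its median. Spots of 1 probe were averaged, and the brightest probe of a gene was kept. A gene was ranked where all 4 values were well above background. Named genes were taken from the 40 highest means, the 30 largest SDs among plain symbols, the 10 smallest SDs above the 75th percentile and leading members of lists, not all of which are named. Other genes, such as Cd3e, Pigr, Saa1 and Zfp628, were chosen after their values were seen. Some genes are not reported here. Array probes were named through accession (27234), symbol (3576) or synonym (565), and 8054 kept the file's name. The measure of spread was tested on simulated data. The analysis used Python 3.11.15 with numpy 2.4.6 and pandas 2.3.3, and limma 3.58.1 in R 4.3.3 for the loess alternative (normexp offset 50). Alternatives changed background, normalization, probe choice, detection flag and samples.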

Additional observations from a re-analysis of the deposited data

Results flagged for a closer look

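Of 203 values examined (genes, list means and array measures), 8 (3.94%) had 1 of the 4 ovaries standing apart, its gap to the nearest sample, as a share of the whole range, passing Dixon's critical value for 4 samples. Chance gives about 1 in 20 such groups. Control 2 was apart in 3 genes: low in Vdr, the vitamin D receptor, with a ratio of 0.946, and high in the androgen enzyme Cyp17a1 (0.884) and the zona gene Zp2 (0.975). Control 4 was the low sample in Aldh1a1 (0.903), the hedgehog target Gli1 (0.831), the collagen Col1a2 (0.849) and the mesenchymal factor Tcf21 (0.855). For Tcf21 the 4 levels were 12.77, 12.69, 12.60 and 11.64. Control 3 was the low sample in adipsin, Cfd (0.839).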

How the results depend on the processing

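Of 122 comparisons of the counts and spreads with an alternative, 11 moved by over 1.5 times. Leaving out saturated genes is not among them, since there were none to leave out. Without centring, the median SD was 0.538 and 463 genes had an SD over 1, against 259 as reported. With the mean over all probes of a gene, 492 genes did, and 11 of the 30 most variable named genes were shared. With the scanner's positive-and-significant flag in place of well above background, 5786 genes were above background in none, 427 had an SD over 1 and 17 of the 30 were shared. Among genes above the median signal 73 genes had an SD over 1 and 7 of the 30 were shared, by construction with fewer genes. With the scanner files labelled early life these values were 459 and 4. The cause of the other shifts was not tested. Leaving out each ovary in turn gave 17280 to 17464 genes above background in all, 10584 to 10822 in none, 15442 to 15565 ranked, 93 to 96 of the 100 highest shared, 22 to 24 of the 30 shared, 253 to 371 with an SD over 1 and a median SD of 0.19 to 0.21. The 100 highest genes were shared in 100 after loess, 67 with the scanner's processed signal and 69 with the mean over probes. Of 240 median percentiles of lists 188 moved by less than their SD over the samples and 52 by more. From the files labelled early life the oviduct median was 75 (47.0 as reported), the oocyte median 65.2 (51.4), the stroma median 66.2 (80.8) and the theca median 75.6 (86.6). No paired analysis was possible because no result here comes from a test between groups. Signal near background limits the lowest levels, probes of close paralogues (globins, Hsd3b, Ces2 and defensin genes) may share signal, and 4 arrayed samples limit the precision of every SD.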
